A study of Homo sapiens with 16 samples.

Results

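The binding sites of INTS13 and HDGF were compared in control cells of HEK293T, a long-established line from human embryonic kidney, by chromatin immunoprecipitation and sequencing (ChIP-seq). The series asked how the Integrator complex reaches particular genes, and also holds ChIP groups from glucose-starved and HDGF-depleted cells that are not described here. Both groups were wild type cells given a control depletion, with 2 labelled replicates each. INTS13 was precipitated with a Bethyl Laboratories antibody and HDGF with a Proteintech antibody, so protein and antibody cannot be told apart. The members were all unique intervals on chromosomes 1 to 22, X and Y in the deposited peak list of each group, 31233 for INTS13 and 106674 for HDGF, together 137907 of the 327678 peaks in the 5 lists of the series. A peak is an interval where the authors' peak caller found more reads than background, and its summit is the position with the most reads. Because each group has 1 list for its replicates, no value has a replicate error and no test between the proteins was possible. Ranges after percentages are Clopper-Pearson 95% intervals; they reflect counting error alone and treat neighbouring peaks as independent. Positions relative to a gene start are negative upstream of it.

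INTS13 is a subunit of Integrator, a complex that binds RNA polymerase II, cleaves nascent RNA and carries a phosphatase. Integrator forms the 3′ ends of small nuclear RNAs (snRNAs, the RNA parts of the spliceosome) and ends transcription early at many protein-coding genes shortly after the polymerase has left the start. HDGF belongs to a family of proteins with a PWWP domain, a fold that reads methylated histone tails, and its relative PSIP1 (LEDGF) is known for sitting over the bodies of transcribed genes.

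The proteins marked different places at genes. Among summits within 5 kb of a gene start, those of INTS13 gathered on the start, whereas those of HDGF were sparse there and lay on both flanks, more often downstream. Such summits are a small part of the lists (6.50% for INTS13 and 13.2% for HDGF), and similar shares of all peaks, 1.84% for INTS13 and 1.64% for HDGF, had a summit within 1 kb of a start. Promoters with the palindrome TCACGTGA, several of them of lysosomal genes, made up a larger share of INTS13 starts than of all promoters. This motif is shown because it had the highest ratio of the share in INTS13 promoters to that in all promoters among the 11 sought. The 6 promoters printed were not picked by strength and do not represent the 35 with INTS13. BAX, DOLK, NUP188 and PEPD, with stronger INTS13 peaks than ATG3, MCOLN1 and CTSA, are left out. The 6 sequences run from 150 bases before to 20 bases after the annotated start, 5′ to 3′ on the gene's strand, from RefSeq on GRCh38.p14, with the palindrome in capitals. LAMP1, a main glycoprotein of the lysosomal membrane, is at chr13:113297089-113297258 (plus strand). CLCN6, a chloride and proton exchanger of late endosomes, is at chr1:11806041-11806210 (plus strand). ATG3, the enzyme that passes LC3 to membrane lipid in autophagy, is at chr3:112561943-112562112 (minus strand). MCOLN1, a calcium channel of the lysosomal membrane, is at chr19:7522474-7522643 (plus strand). CTSA, the lysosomal protease cathepsin A, is at chr20:45891185-45891354 (plus strand). DNAJC8, a J-domain protein associated with splicing, is at chr1:28233010-28233179 (minus strand) and had both proteins at its start.
LAMP1: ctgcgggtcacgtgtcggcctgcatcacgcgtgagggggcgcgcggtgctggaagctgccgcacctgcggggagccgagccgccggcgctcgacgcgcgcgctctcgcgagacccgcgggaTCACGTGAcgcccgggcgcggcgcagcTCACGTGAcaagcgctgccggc
CLCN6: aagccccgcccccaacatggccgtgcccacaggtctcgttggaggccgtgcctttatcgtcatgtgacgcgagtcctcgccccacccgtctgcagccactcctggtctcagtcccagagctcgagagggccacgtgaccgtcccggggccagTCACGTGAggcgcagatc
ATG3: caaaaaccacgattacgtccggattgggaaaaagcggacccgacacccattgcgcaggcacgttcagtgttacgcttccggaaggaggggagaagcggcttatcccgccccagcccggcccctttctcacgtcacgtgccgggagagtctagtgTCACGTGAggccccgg
MCOLN1: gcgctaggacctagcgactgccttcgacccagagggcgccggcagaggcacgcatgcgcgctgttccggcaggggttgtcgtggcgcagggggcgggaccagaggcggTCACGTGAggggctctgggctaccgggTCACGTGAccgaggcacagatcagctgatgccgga
CTSA: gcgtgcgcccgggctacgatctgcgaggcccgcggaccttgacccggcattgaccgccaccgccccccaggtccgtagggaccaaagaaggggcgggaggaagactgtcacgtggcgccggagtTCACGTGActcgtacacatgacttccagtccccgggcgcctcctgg
DNAJC8: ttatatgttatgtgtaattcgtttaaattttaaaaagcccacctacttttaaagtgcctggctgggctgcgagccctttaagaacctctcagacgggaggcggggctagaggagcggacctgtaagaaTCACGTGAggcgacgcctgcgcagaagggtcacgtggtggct

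Each summit was first placed relative to the nearest start of a protein-coding gene of known strand. Of 2030 INTS13 summits within 5 kb of a start, 387 lay within 500 bp of it (19.1%, 17.4 to 20.8). Of 14094 HDGF summits within 5 kb, 500 lay within 500 bp (3.55%, 3.25 to 3.87). The inner window is 10% of the length of the outer one, so INTS13 was above and HDGF below an even spread. The INTS13 share was 24.9% where −log10 q was 3 or more and 64.8% (50.6 to 77.3, 35 of 54) where it was 10 or more (q is the authors' p-value corrected for multiple testing). It was 29.1% outside chromosomes 1, 13, 22 and X, which hold most INTS13 peaks. For HDGF the same 3 shares were 3.14%, 2.74% and 2.94%. Beyond 500 bp, 64.5% of the HDGF summits near starts were downstream (8767 against 4827 upstream), while INTS13 summits were divided evenly (857 and 786).

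The shape was read from 13503 genes longer than 5 kb. INTS13 rose from 100 summits in the 500 bp that end 500 bp upstream to 139 in the last 500 bp before the start and 229 in the first 500 bp after it, then fell to 88 in the next bin. HDGF fell from 751 to 302 and 130 summits over the same first 3 bins, was at 422 in the fourth, and reached 1169 between 1.5 and 2 kb downstream. Around gene ends neither protein had such a peak or trough. Counted for the nearest end, 9.41% of INTS13 summits (8.16 to 10.8) and 13.1% of HDGF summits (12.5 to 13.7) within 5 kb lay within 500 bp.

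**Figure D1:**
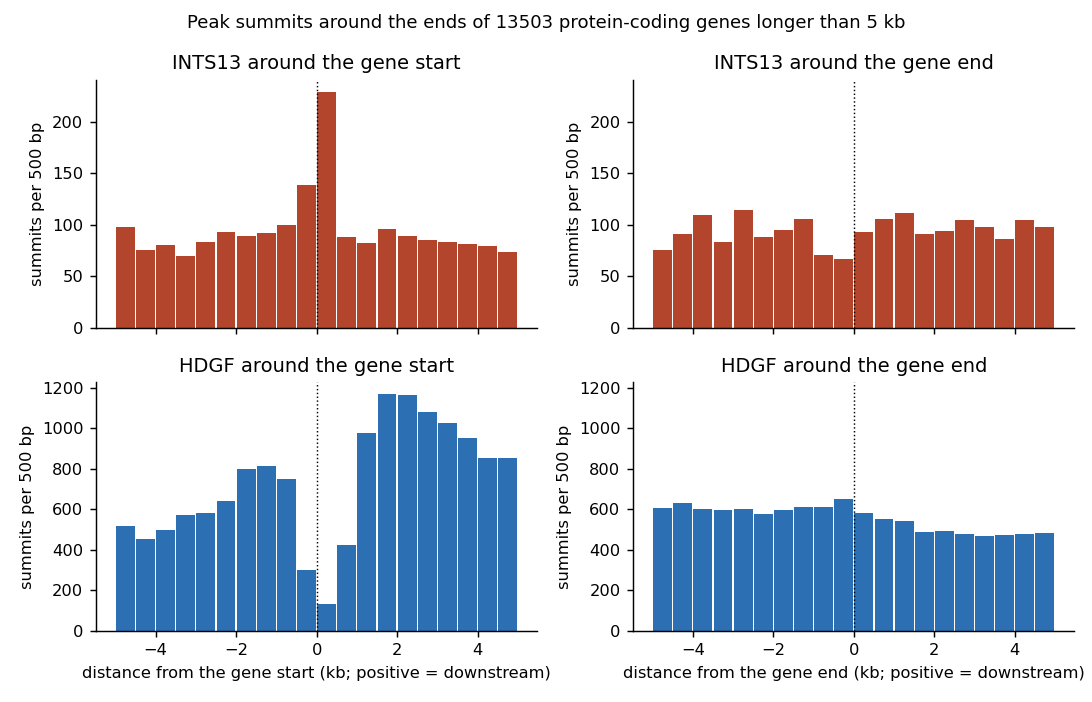
Summits per 500 bp (vertical axes, counts) against distance in kb from the start (left) and end (right) of 13503 protein-coding genes longer than 5 kb, for INTS13 (top) and HDGF (bottom). INTS13 peaks at 229 summits in the first 500 bp, where HDGF has its lowest count of 130, and HDGF is highest at 1169 between 1.5 and 2 kb downstream.

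Both patterns were then read at the same genes. Of 359 genes longer than 5 kb with an INTS13 summit within 500 bp of the start, 41 also had an HDGF summit there (11.4%, 8.32 to 15.2). HDGF lay 500 to 5000 bp downstream of the start at 269 (74.9%, 70.1 to 79.3), upstream at the same distance at 237 (66.0%, 60.9 to 70.9), and on both sides but not at the start at 173 (48.2%, 42.9 to 53.5). Among 13144 genes without INTS13 at the start, the shares were 2.86% at the start, 32.5% downstream, 23.2% upstream and 14.3% on both sides. Starts with INTS13 thus had HDGF more often in all 4 positions. The window at the start is narrower than each flank, so these shares do not compare the positions. Per 500 bp, at the 359 genes, HDGF had 7.80 and 4.18 summits per 100 genes in the 500 bp before and after the start, and 8.91 to 23.7 in each 500 bp of the flanks. Outside chromosomes 1, 13, 22 and X, HDGF was downstream at 71.1% (64.1 to 77.5) of 187 genes with INTS13 at the start and at 30.3% (29.4 to 31.1) of 10732 without.

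Among all peaks, overlap means at least 1 shared base. HDGF overlapped 14066 INTS13 peaks (45.0%, 44.5 to 45.6), and INTS13 overlapped 11512 HDGF peaks (10.8%, 10.6 to 10.98). The HDGF list is the longer one and covers 53.4 Mb against 12.4 Mb. HDGF intervals covered 43.2% of INTS13 bases and INTS13 intervals 10.1% of HDGF bases. At gene starts the overlap was lower than elsewhere: INTS13 peaks with a summit within 1 kb of a start overlapped HDGF in 158 of 575 cases (27.5%, 23.9 to 31.3), those at gene ends in 238 of 364 (65.4%, 60.2 to 70.3), those inside genes in 49.4% and those outside genes in 42.1%. Accordingly, 6.96% of shared INTS13 peaks within 5 kb of a start were within 500 bp of it, against 30.6% of INTS13 peaks without HDGF. Requiring 50% of both intervals to be shared left 9.61% of INTS13 peaks and 2.81% of HDGF peaks.

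Most HDGF peaks lay inside genes (66.9%), whereas most INTS13 peaks lay outside them (56.7%, against 28.3% for HDGF). The share of the genome inside genes was not computed, and INTS13 peaks were clustered in a small part of the genome. The shares therefore do not show a preference of either protein for sites inside or outside genes. Shared INTS13 peaks were wider than the others, with medians of 364 and 280 bp, and shared HDGF peaks had a median of 633 bp against 325 bp. In 46.7% of cases the shared INTS13 peak lay wholly inside 1 HDGF interval. The broadest example was an HDGF interval of 52943 bp on hg38 at chr9:79626131-79679073, with an authors' fold of 6.38 over background, and it held 37 separate INTS13 peaks.

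Overlap was highest among the strongest INTS13 peaks and differed between chromosomes. In 10 classes of INTS13 peaks ranked by the authors' −log10 p, it ran between 29.2% and 55.0% in the first 9 classes and was 74.6% (73.1 to 76.2) in the strongest. Width moved with strength: in the strongest class the median width was 512.5 bp, and 87.1% of its peaks over 400 bp overlapped HDGF against 54.5% of the narrower ones. Chromosome 9 had the highest share (82.9%, 573 of 691), followed by chromosomes 16 (68.2%), 13 (63.5%) and 1 (51.7%). On chromosome 9 the 1 Mb bin that starts at 79 Mb held 516 of the 691 INTS13 peaks and 510 of the 573 shared ones. The share is therefore mainly that of 1 bin, which stays in the sets outside chromosomes 1, 13, 22 and X. Chromosome X had 3757 INTS13 peaks, of which 7.96% overlapped HDGF. The 48 bins of 1 Mb in which HDGF intervals cover at least 20% of the bases held 49.1% of INTS13 peaks and 78.1% of the shared ones. Inside them 71.7% of INTS13 peaks overlapped HDGF, and outside them 19.3% (3078 of 15910). Thus the share of 45.0% over all peaks came largely from a small part of the genome, and 17 bins held 50% of the shared peaks. Of the 48 bins 25 were on chromosome 1 and 18 on chromosome 13. The bins were chosen for their HDGF coverage, so these shares are a description. On average HDGF covered 33.2% of the 1 Mb bin around an INTS13 base, against the 43.2% of INTS13 bases it overlapped, a ratio of 1.30 between the latter and the former. The ratio was 1.90 outside chromosomes 1, 13, 22 and X. With bins of 100 kb the ratios fell to 1.13 and 1.35, closer to the local HDGF coverage.

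**Figure D2:**
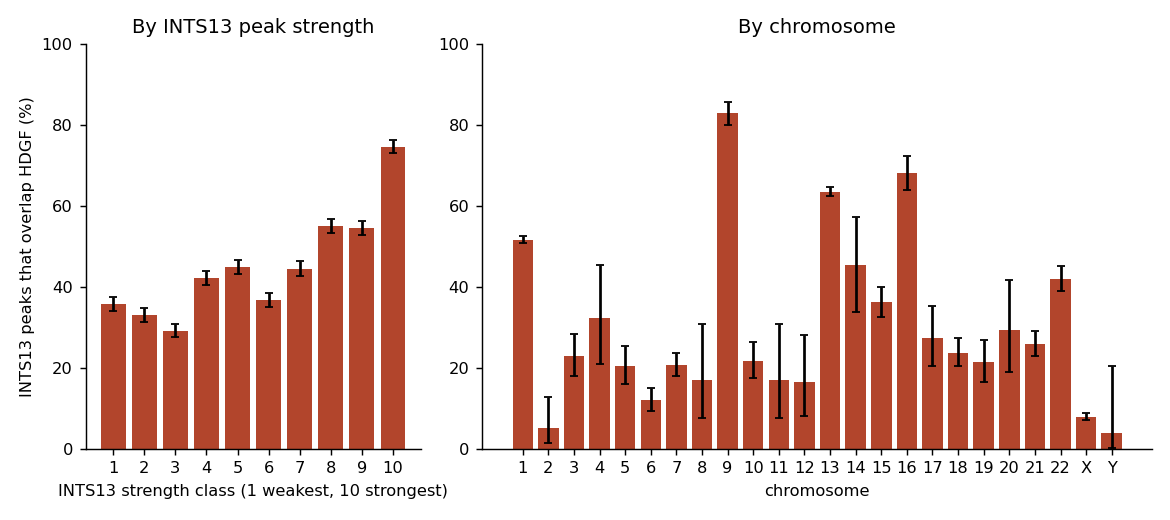
Percentage of INTS13 peaks that overlap an HDGF peak by at least 1 base, by INTS13 strength class (left) and by chromosome (right). Bars are shares and lines are exact 95% intervals. The strongest class stands at 74.6%, and among chromosomes 9 is highest at 82.9%, with most of its shared peaks in 1 bin of 1 Mb.

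Shared peaks seldom had a common summit. The nearest overlapping HDGF summit lay a median of 300 bp from the INTS13 summit (95% interval 293 to 308, quartiles 122 and 737 bp), and 44.3% were within 250 bp. The distance followed the width of the HDGF interval, with a median of 144 bp where it was up to 500 bp, 298 bp from 500 to 2000 bp and 1343.5 bp above that. In 30.9% of shared peaks both summits lay in the shared bases. Counting every pair of summits up to 10 kb apart, 6423 were within 250 bp, against a mean of 5521 per 250 bp between 1 and 10 kb, a ratio of 1.16. The ratio was 1.27 where −log10 q was 3 or more, 1.35 outside chromosomes 1, 13, 22 and X, and 9.88 where it was 10 or more in both lists (194 pairs). An excess of close summits was thus largest among the strongest peaks of the 4 sets.

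**Figure D3:**
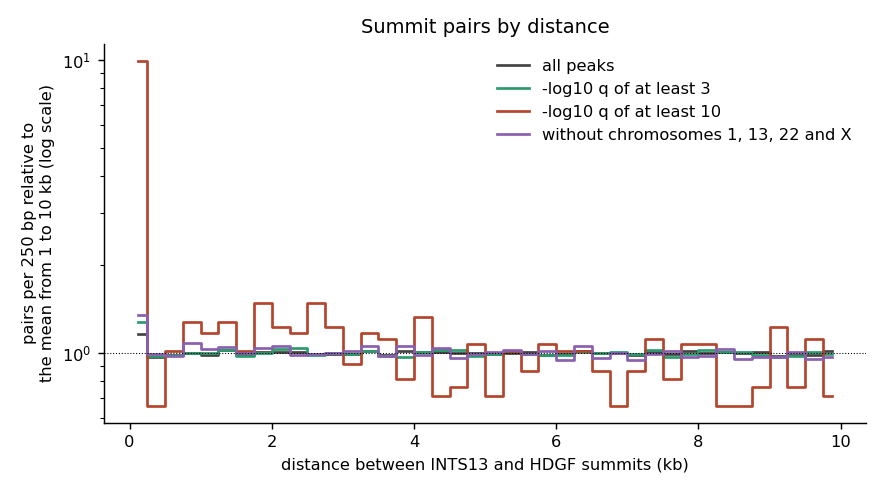
Number of INTS13 and HDGF summit pairs per 250 bp of distance, relative to the mean between 1 and 10 kb (vertical axis, log scale), against distance in kb, for 4 sets of peaks. The first bin is at 1.16 for all peaks and at 9.88 where −log10 q was 10 or more in both lists, and the other bins scatter around 1.

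Those strongest common peaks were largely away from genes. Of the 749 INTS13 peaks of that strength, 634 lay outside genes, and 84.9% of these overlapped HDGF. The 3 strongest pairs there were at chr1:125178856-125180763, chr16:46388552-46392053 and chr3:93470322-93470825, all beside centromeres, with INTS13 folds of 54.1, 54.2 and 53.6, HDGF folds of 51.7, 52.2 and 52.0, and summits 4, 23 and 1 bp apart. Of the 608 shared INTS13 peaks at this strength, 437 (71.9%, 68.1 to 75.4) overlapped a peak in all 5 lists of the series, against 24.2% of the weaker shared ones. At gene starts the 45 INTS13 peaks of this strength overlapped HDGF in 14 cases (31.1%, 18.2 to 46.6). Without intervals found in all 5 lists, 30.6% of INTS13 peaks and 7.70% of HDGF peaks overlapped.

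By gene, INTS13 had a summit within 1 kb of either end at 956 of 20037 protein-coding genes (4.77%) and HDGF at 3868 (19.3%). Both were at 598 genes (2.98%), so 62.6% of INTS13 genes had HDGF (59.4 to 65.6) and 15.5% of HDGF genes had INTS13. Of the 598 genes, 466 had both proteins at a common end (77.9%), and 132 only at opposite ends. The strongest peaks of the proteins at a common end overlapped at 224 of the 598 genes (37.5%), and the strongest peaks at either end at 143 (23.9%).

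Strand was known for 15842 of these genes. INTS13 was at 592 starts (3.74%) and 332 ends (2.10%). HDGF was at 1642 starts (10.4%) and 2258 ends (14.3%). Of the 499 genes with both, both were at the start in 211 (42.3%, 37.9 to 46.8) and both at the end in 232 (46.5%, 42.0 to 51.0). INTS13 was only at the start and HDGF only at the end in 99 (19.8%, 16.4 to 23.6), and the reverse held in 16 (3.21%, 1.84 to 5.15). HDGF was at the start of 35.6% of INTS13-start genes (31.8 to 39.6), and at the end of 69.9% of INTS13-end genes (64.6 to 74.8). The balance for HDGF depends on the window: starts made up 42.1% of its starts and ends within 1 kb, 26.1% within 500 bp and 57.2% within 2500 bp, where the downstream flank of the start is included. INTS13 starts were 64.1%, 69.3% and 56.8%.

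Among genes with INTS13 and no HDGF at either end, LAMP1 had the strongest peak, with an INTS13 fold of 9.46 and a summit at −159 bp. The nearest HDGF summit to LAMP1 was 13080909 bp away. Chromosome 13 has 11474 HDGF peaks but none with a summit in that stretch, so the absence is regional and not particular to LAMP1. HEXA, the alpha subunit of the lysosomal enzyme hexosaminidase A, and KDM5C, a histone H3 lysine demethylase, followed with INTS13 folds of 6.62 each. UBE2Q1, a ubiquitin-conjugating enzyme, had 6.35. CPSF2, a subunit of the complex that cleaves pre-mRNA before polyadenylation, and APIP, an enzyme of methionine salvage, had 6.08. BLTP3B and CCDC121 had 5.81 and 5.68. In the 6 of these 8 genes with known strand, the INTS13 summit was at the start, from −324 bp at APIP to 63 bp at BLTP3B. The genes were ranked by INTS13 strength, which favours starts. At a −log10 q of 10 or more, 45 INTS13 peaks were near a start, and 0 were near an end without also being near a start. With a window of 2500 bp HEXA, UBE2Q1 and CPSF2 gained HDGF at the same end.

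The 8 genes with the strongest INTS13 peaks among those with the proteins only at opposite ends all had INTS13 at the start and HDGF at the end. As above, a ranking by INTS13 strength favours starts. WDR74, a ribosome assembly factor, had an INTS13 fold of 8.11 at the start and an HDGF fold of 3.25 near the end, 8337 bp apart. TM2D1 had 7.84 and 3.12 with 43538 bp between the summits. TXNRD2, the mitochondrial thioredoxin reductase, had 5.95 and 2.73. KLHL11, SIRT4, MAN2C1, NUP188 and TAB1 had INTS13 folds between 4.59 and 5.81 and HDGF folds between 2.60 and 3.51. The INTS13 peak of WDR74 is the peak over the snRNA gene RNU2-2, and that of SIRT4 is the peak over RNU4-2, so these 2 starts cannot be told from the snRNA genes. The class depends on the window: within 2500 bp all but SIRT4 had a common end, counting any base of a peak TM2D1, TXNRD2, MAN2C1 and TAB1 did, and within 500 bp TXNRD2, KLHL11, SIRT4 and TAB1 had INTS13 alone. Folds of the lists come from separate peak calls and are given side by side, not compared.

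Among the 143 genes whose strongest peaks at either end overlapped, the 10 with the strongest INTS13 had summits 17 to 1412 bp apart. At SPANXB1, a testis-expressed gene of a multi-copy family on chromosome X, whose values are uncertain for that reason, the INTS13 fold was 6.89 and the HDGF fold 4.68, with summits 44 bp apart just after the start. DNAJC8 had 6.35 and 3.90 with 269 bp between them, the HDGF summit being at −238 bp. At FBXO28 and PPP1R8, a regulator of protein phosphatase 1, the HDGF summit was at −578 and −826 bp, and the INTS13 summit at 39 and 107 bp. LIN9, a subunit of the DREAM and MuvB complexes, had INTS13 at 706 bp and HDGF at −706 bp. KIF22, a mitotic kinesin, had both at its end, 754 bp apart. The INTS13 summit there was also within 1 kb of the start of another gene, so KIF22 is not a clear case of an end. SAXO1, C1orf35, DDX17 and LOC107987020 completed the 10, with INTS13 folds of 4.32 to 5.68. Of the 8 genes among these 10 with known strand, 7 had the common peak at the start. This ranking was also by INTS13 strength. Over all 499 genes with both proteins and known strand, both were at the start in 211 and both at the end in 232.

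HDGF without INTS13 was strongest at POLGARF (HDGF fold 5.07), EXOC8 (4.94), BORA (4.81), IMP3 (4.81), VDAC2 (4.81), SPRTN (4.68), CATSPERE (4.55) and FOXD3 (4.55). BORA activates the mitotic kinase Aurora A, IMP3 is a nucleolar ribosome assembly factor, and VDAC2 is a channel of the outer mitochondrial membrane. HDGF was at the end of 5 of the 8 genes (EXOC8, BORA, IMP3, VDAC2 and FOXD3) and between 688 and 967 bp from the start at the other 3. None of these 8 summits lay within 500 bp of the gene's own start. With a window of 2500 bp POLGARF, EXOC8, BORA, SPRTN and CATSPERE gained INTS13 at the same end.

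The snRNA genes, the classic Integrator targets, were marked by INTS13 at 13 of 23 genes in the gene table and by HDGF at 2. INTS13 summits were on or within 118 bp of each of the 13. RNU11, the U11 RNA of the minor spliceosome at chr1:28648600-28648734, had the highest INTS13 fold of 9.19, with the summit 69 bp from the gene. RNU2-2, a U2 gene at chr11:62841619-62841809, had 8.11 with the summit 13 bp away, and RNU4-2, a U4 gene at chr12:120291759-120291903, had 5.41 at 1 bp. The U5 genes RNU5D-1 (INTS13 fold 5.27), RNU5E-1 (5.13), RNU5F-1 (5.13), RNU5A-1 (4.19) and RNU5B-1 (4.19), the variant U1 genes RNVU1-14 (5.27) and RNVU1-7 (3.78), RNU4ATAC (4.05), RNU12 (4.05) and the histone-processing RNA gene RNU7-1 (2.70) were also marked. No INTS13 summit lay within 10 kb of RNU1-1, RNU1-2, RNU1-3 or RNU1-4. These and other snRNA genes have near-identical copies, and how reads with several matches were treated is not given in the sources used here, so the values at multi-copy genes are uncertain. The strand of the small RNA genes was not in the tables used here, so no side relative to transcription is given.

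No snRNA gene had an HDGF summit on it, but these genes are far shorter than the windows used, so few summits could fall on them. HDGF lay within 1 kb of 2 of the 23 genes (8.70%) and within 5 kb of 9, and the nearest was 22070 bp away at RNU4-2 and 43347 bp at RNVU1-14. Both counts are near the shares at protein-coding genes. HDGF was within 1 kb of 10.4% of starts, and within 5 kb of the start at 41.5% of genes longer than 5 kb. The closest summits were 398 bp from RNU11 (HDGF fold 2.99) and 906 bp from RNU5A-1 (3.12), both beyond the INTS13 summit on the same side, 329 and 881 bp from it, and at RNU11 the peaks overlapped. At RNU5B-1, RNU7-1, RNU2-1, RNU2-2 and RNU12 the nearest HDGF summit was 1015, 1207, 1263, 1845 and 1961 bp away. With a window of 500 bp the HDGF count was 1, and with 2500 bp it was 7, whereas the INTS13 count was 13 and 14. Of 8 other polymerase II genes for small RNAs with snRNA-type promoters, INTS13 was at SNORD3B-2 (U3, fold 5.00) and SNORD118 (U8, 2.97) and HDGF at none within 1 kb. The 16 small RNA genes of polymerase III had INTS13 at RNY3 (3.24) and HDGF at RNY4, RNY5, RNU6-1 and RNU6-9, with folds from 2.73 to 3.12. These shares were 6.25% and 25%, against 4.77% and 19.3% of protein-coding genes at either end and 3.74% and 10.4% at starts alone. The ends of so short a gene nearly coincide, so the shares at starts are the closer comparison. The HDGF share was above that at starts, but it rests on few genes.

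Several protein-coding lists had shares above the background for 1 or both proteins. Cytosolic ribosomal protein genes had HDGF at 52 of 78 members (66.7%) and INTS13 at 13 (16.7%), against 19.3% and 4.77% of all protein-coding genes. Of the 62 with known strand, HDGF was at the end of 37 and at the start of 14, and INTS13 at the start of 7 and the end of 5. RPS12 had INTS13 78 bp after the start (fold 3.11) and HDGF 3208 bp after it (3.12), just past the end of the gene. RPL7A, RPL12 and RPS28 had the same order, with summits 2203, 3096 and 2841 bp apart. This order was not the rule: of the 11 genes with both proteins, 6 had a common end and 5 only opposite ends. RPS6 had both near its end, with an HDGF fold of 5.60 and an INTS13 fold of 3.65. The genes are short, so a window of 1 kb at each end takes in much of their length.

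Glycolysis genes had HDGF at 13 of 25 (52.0%) and INTS13 at 2 of them. HDGF was at the end of 10 of the 22 with known strand, among them GAPDH, PGAM1 and ENO1, and at the start of 2. PKM, a pyruvate kinase gene, had INTS13 460 bp after the start (fold 2.97) and HDGF 32000 bp after it, close to the end (3.77). Of the 2 glycolysis genes with both proteins, 1 had a common end and 1 only opposite ends. Integrated stress response genes had HDGF at 17 of 36 (47.2%) and INTS13 at 5 (13.9%). ATF4, the central transcription factor of this response, had INTS13 at −157 bp (fold 4.05) and HDGF just past the end (4.03), 2469 bp apart. CTH, an enzyme of cysteine synthesis, and TXNIP, a thioredoxin inhibitor, had the same order of their strongest summits. Counting all summits, 2 of the 4 stress response genes with both proteins had a common end and 2 only opposite ends. DDIT4, an inhibitor of mTORC1, had both at its end with summits 212 bp apart. SESN2, another stress-induced inhibitor of mTORC1, had INTS13 alone, 71 bp after the start (4.19).

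Genes of polymerase II pausing and termination had INTS13 at 6 of 33 (18.2%) and HDGF at 9 (27.3%), with 1 gene in common. INTS13 was at the start of POLR2A, the largest polymerase subunit (fold 4.05), and of CPSF2, CSTF2, PCIF1 and HEXIM1. HDGF was at the end of SUPT5H, CDK9 and MEPCE with folds of 2.73, 2.99 and 2.86. HEXIM1, an inhibitor of the kinase CDK9, had INTS13 at −911 bp and HDGF near the end. Immediate early genes had HDGF at 12 of 37 (32.4%) and INTS13 at 2 (5.41%), JUN and BTG2. JUN had INTS13 87 bp after its start (3.11) and HDGF near its end (3.77). Both of these 2 genes had HDGF, 1 at a common end and 1 only at opposite ends. The 19 genes of Integrator and associated proteins had no INTS13 within 1 kb. HDGF was at 5 (26.3%), the subunit genes INTS5 and INTS14 and the genes NABP2, INIP and BRAT1 of associated proteins. The shares of all protein-coding genes were 4.77% and 19.3%, so an absence of INTS13 in so short a list says little. Of the 5 HDGF family genes, HDGF itself had its own protein near the end (fold 4.03). Histone genes had few of either, with INTS13 at 1 and HDGF at 3 of 58. In marker genes of other tissues INTS13 was at 2 and HDGF at 6 of 37, a share of 5.41% and 16.2%.

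**Figure D4:**
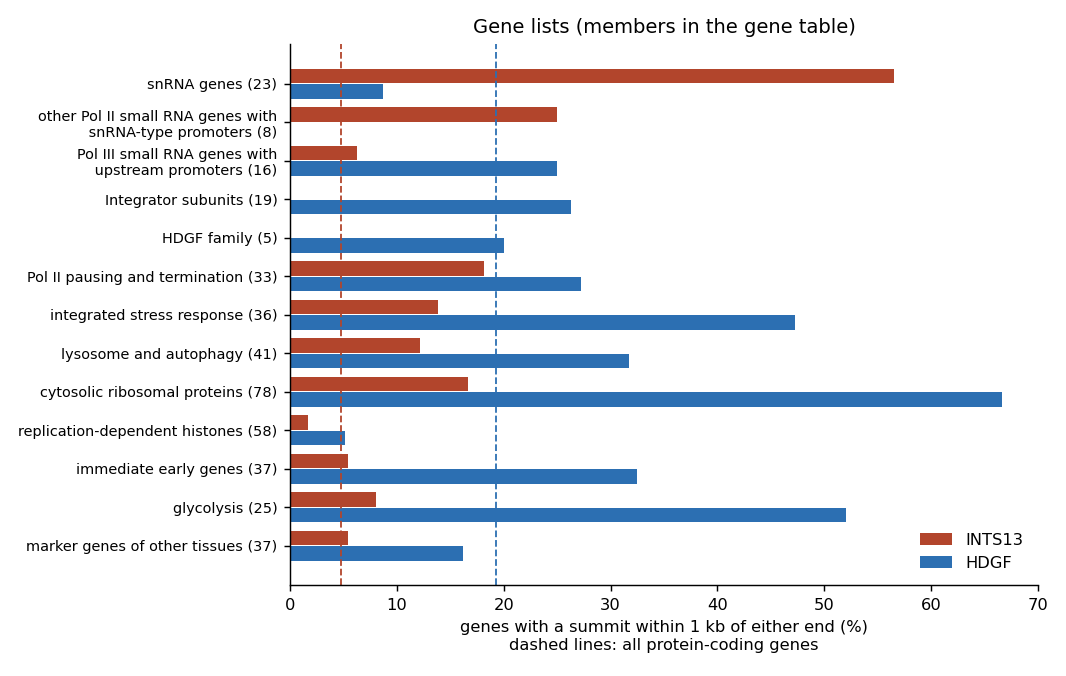
Percentage of each gene list (horizontal axis) with an INTS13 or HDGF summit within 1 kb of a gene boundary, with the number of members in brackets. Dashed lines give the shares of all protein-coding genes, 4.77% for INTS13 and 19.3% for HDGF. The ends of small RNA genes nearly coincide, so for those lists the lines are not a like comparison. INTS13 is highest at snRNA genes (13 of 23) and HDGF at ribosomal protein genes (52 of 78).

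Lysosome and autophagy genes had INTS13 at 5 of 41 (12.2%) and HDGF at 13 (31.7%). The 5 INTS13 genes were LAMP1, HEXA, ATG3 (fold 4.32), MCOLN1 (3.92) and CTSA (3.51). The 4 with known strand had INTS13 at the start, all 4 have the palindrome shown above, and none had HDGF within 500 bp. MCOLN1 and ATG3 had HDGF at the end (2.73 each). HDGF alone was near the end of SQSTM1, an autophagy receptor (4.16), and of MAP1LC3B, the LC3 gene (3.12). Of the 32 genes of this list with known strand, HDGF was at the start of 7 and at the end of 9.

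TCACGTGA is the core of an E-box element known from promoters of lysosomal genes, where TFEB and related factors bind it. It was sought, with 10 other motifs, in the 300 bases around the start (250 before, 50 after) of 13901 genes. Being a palindrome it reads the same on both strands, and every match is also a match of the E-box CACGTG. Of 380 promoters with an INTS13 summit within 500 bp of the start, 35 had TCACGTGA (9.21%, 6.50 to 12.6), against 198 of all 13901 (1.42%, 1.23 to 1.64). The share was 4.44% for a −log10 q below 3, 6.11% from 3 to 5, 13.7% from 5 to 10 and 17.1% (6.56 to 33.6) at 10 or more, and 1.21% in promoters without INTS13. Outside chromosomes 1, 13, 22 and X it was 12.1% (7.88 to 17.4). Read the other way, 17.7% of promoters with the palindrome had INTS13 at the start (12.6 to 23.7), against 2.73% of all, and 2.53% had HDGF there (0.825 to 5.79), against 2.82% of all. HDGF was 500 to 5000 bp downstream of 48.0% of them (40.8 to 55.2), against 33.0% of all.

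In the 35 promoters, which share 30 INTS13 peaks, the palindrome lay a median of 31 bp from the INTS13 summit, and at 22 it was within 50 bp. Where a promoter had several copies, the one nearest the summit was taken. Motif and summit were both sought close to the start, so part of this closeness follows from the selection. No such distance was computed for another motif. At CTSA the distance was 1 bp and at ATG3 15 bp, at CLCN6 29 bp, at MCOLN1 51 bp and at LAMP1 134 bp to the nearer of its 2 copies. HDGF had a summit within 500 bp of the start at 1 of the 35, DNAJC8, and 500 to 5000 bp downstream at 19, against 281 of the 380 INTS13 promoters. The palindrome was in 6.76% of those 281 (4.12 to 10.4) and in 16 of the 99 others (16.2%, 9.53 to 24.9), with overlapping intervals, so the order over all promoters did not hold among INTS13 promoters. Besides those shown, and named after their values were seen, the 35 include NAGPA and GNPTG, both needed for the mannose 6-phosphate tag of lysosomal enzymes, IGF2R, the receptor of that tag, and BLOC1S1 and MFSD1 of lysosome-related and lysosomal membranes. They also include genes with other roles, such as BAX in apoptosis, RAD9A in the DNA damage checkpoint, the deacetylase SIRT1, and FDX2 in iron-sulfur cluster assembly. A match is a description of the letters and not a measured binding site of any factor.

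**Figure D5:**
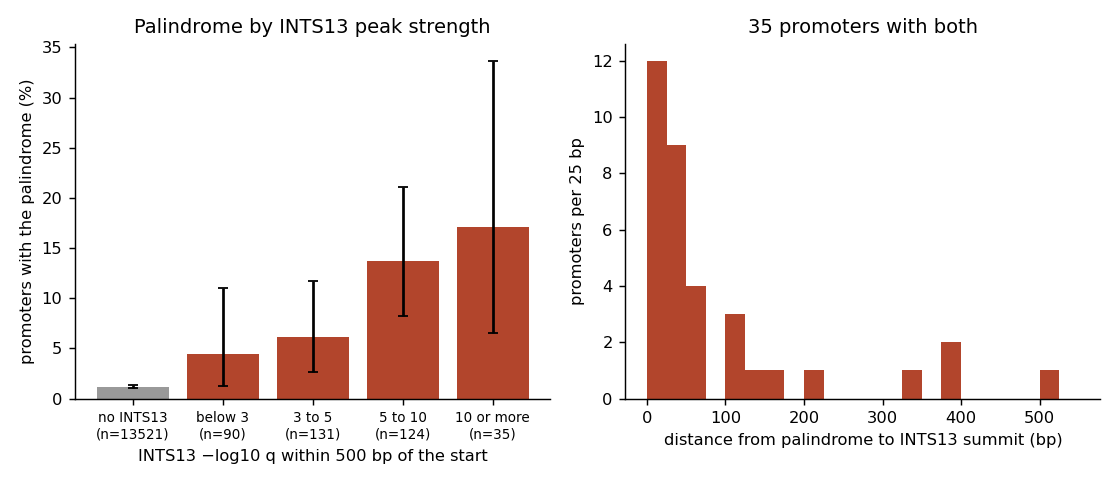
Left, percentage of promoters with the palindrome by the −log10 q of the INTS13 peak within 500 bp of the start, with exact 95% intervals, from 1.21% without INTS13 to 17.1% in the strongest class. Right, number of promoters per 25 bp of distance between the INTS13 summit and the nearest copy of the palindrome, of which 22 of 35 lie within 50 bp. Both were sought close to the start, so part of the closeness follows from the selection.

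The other motifs differed less. CACGTG was in 19.7% of INTS13 promoters (15.9 to 24.1) and 8.98% of all. This is not a separate result, since 35 of those 75 INTS13 promoters are the ones with TCACGTGA. The ZBTB33 motif was in 2.11% (0.913 to 4.11) and 0.705%. For the GC box (GGGCGG), the CCAAT box, the TATA box (TATAAA), the ETS motif (CCGGAAG), the cyclic AMP response element (TGACGTCA), the EGR motif (GCGTGGGCG) and the ZNF143 and NRF1 motifs, sought on both strands, the intervals of the INTS13 promoters and of all promoters overlapped. The GC box was at 64.2% and 58.5% and the TATA box at 7.11% and 10.0%. In the 159 promoters with an INTS13 −log10 q of 5 or more, the GC box was at 71.7% (64.0 to 78.5). The ETS motif was at 21.4% there (15.3 to 28.6, against 14.6% of all). Both lay above the intervals of all promoters, the ETS motif narrowly, with a lower bound of 15.3% against an upper bound of 15.2%. Promoters with HDGF 500 to 5000 bp downstream and no INTS13 within 500 bp had similar shares, 73.1% and 20.5% of 4304. The GC box and ETS shares were thus not particular to INTS13 promoters. TCACGTGA was at 14.5% of the 159 (9.40 to 20.9) and at 1.77% of the 4304. The ZBTB33 interval of the 159 (0.690 to 6.32) took in the share of all promoters. Median GC content was 64.3% in the INTS13 promoters, 62.7% in all, and 66.0% where HDGF was downstream and INTS13 was not at the start.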

How the data were processed

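ChIP-seq peak lists of INTS13 and HDGF in control cells were used as deposited, 1 list per group of 2 replicates. The submitters' processing notes name FastQC, Trimmomatic, Bowtie, Picard and MACS2 and build hg38. Versions, settings, the pooling of replicates and the use of inputs were not given in the sources used here. In the deposited lists a peak carries an integer score, a fold (ratio) of reads at the summit over background, and −log10 p and −log10 q, all the authors' values. They served only to rank, filter or describe peaks within a list. The depth is unknown, and the input samples were not analysed here.

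Peaks on other sequences (16 and 23 rows) were left out. Overlaps, summit distances and gene marks were computed with Python 3.11.15, numpy 2.4.6, pandas 2.3.3 and scipy 1.17.1, with functions tested on simulated data. Genes came from RefSeq on GRCh38.p14. Strand came from the RefSeq promoter table, which held 15842 of the 20037 protein-coding genes, and promoter sequences were used for the 13901 whose start lay within 100 bp of the gene's boundary. Named genes were the strongest 10, 8, 8 and 8 by −log10 q of the 4 classes (overlapping, opposite ends, INTS13 alone, HDGF alone), the small RNA genes with a summit, the strongest members of each of 13 gene lists, and the strongest pairs away from genes. The members and lists were chosen with earlier results of these data known. Alternatives varied the overlap, the q threshold, the gene window, the list length and the chromosomes.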

Additional observations from a re-analysis of the deposited data

How the results depend on the processing

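Of 70 alternative values for 12 results, 30 stayed within the 95% interval of the value in the text (or, for counts, within 1.5 times) and 40 lay outside. The share of INTS13 peaks that overlapped HDGF (45.0%) was 9.61% with 50% of both intervals and 20.5% with summits within 250 bp. It was 43.7% and 51.5% at a −log10 q of at least 3 and 10 in both lists. With HDGF cut to the length of the INTS13 list it was 31.9%. It was 33.2% without chromosomes 1, 13, 22 and X, and 30.6% without intervals in all 5 lists. The share of HDGF peaks (10.8%) was 2.81%, 6.03%, 13.4%, 41.1%, 22.4%, 2.97% and 7.70% in the same order. The median summit distance (300 bp) was 972 bp with overlap not required and 425 bp at a −log10 q of at least 3 in both lists. It was 172 bp with both intervals under 1 kb and 223 bp without intervals in all 5 lists.

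The share of INTS13 genes with HDGF (62.6%), the share of genes with both that have a common end (77.9%), and the INTS13 (64.1%) and HDGF (42.1%) starts among starts and ends were 42.3%, 65.5%, 69.3% and 26.1% within 500 bp, and 79.5%, 91.4%, 56.8% and 57.2% within 2500 bp. Counting any base of a peak, the first 2 and the last were 68.5%, 84.3% and 47.2%. The first was 47.4% at a −log10 q of at least 3 in both lists and 38.6% with the shorter HDGF list. The first 3 were 53.5%, 67.9% and 72.8% without the 4 chromosomes. INTS13 summits near starts (19.1%) were 24.9% at a −log10 q of at least 3 and 29.1% without the 4 chromosomes, and HDGF summits (3.55%) were 3.14% and 2.94%; these settings and those for the palindrome and snRNA genes were chosen after seeing the data. The share of INTS13 starts with the palindrome stayed between 6.90% and 12.1%. HDGF was at 1 snRNA gene within 500 bp and at 7 within 2500 bp. Of 34 named protein-coding genes, 13 changed class within 500 bp, 15 within 2500 bp, and 3 to 5 under the other settings. The causes of these shifts were not tested. Taking all rows of the lists left both overlaps the same.

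No paired analysis was possible because each group has 1 list for its 2 replicates, and for the same reason no replicate was left out. Depth is unknown and the list lengths differ between the proteins, so an absent peak says only that none was called. The intervals treat clustered peaks as independent.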
